A study of Danio rerio with 6 samples.

Results

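Calcium-binding proteins with EF-hand domains include classical markers of interneuron classes, namely calbindin, calretinin and parvalbumin. The 10 genes described here encode EF-hand proteins, not all of them such markers. They were chosen by name: calb1, calb2a, calb2b, cabp5b, pvalb5, pvalb6, pvalb7, ncaldb, hpcal4 and vsnl1a. Of these, 9 were among the 14781 genes in the count files, and calb1, which encodes calbindin, was not analysed here. RNA was sequenced from whole spinal cord tissue of adult Ekkwill zebrafish in 2 groups, 3 libraries at 1 week after complete transection (1 wpi, called injured below) and 3 libraries from sham-operated clutchmates, whose skin and muscle were cut and whose cord was left intact. Tissue reached 2 mm to either side of the lesion, or of the matching site in sham fish, and the methods give an age range of 3 to 12 months for the adults of the study. The labels give no genotype, and how many fish made up a sample was not found in the sources. The p-values therefore reflect only how these samples spread, which may be technical.

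In an EF-hand, a helix, a short loop and a second helix hold 1 calcium ion. Proteins of this family act either as buffers, which bind calcium as it enters a neuron and shape how long it stays free, or as sensors, which change form on binding and act on channels, receptors or enzymes. Calretinin, encoded by calb2a and calb2b in zebrafish, and the parvalbumins are buffers. The Cabp proteins resemble calmodulin, and neurocalcin, hippocalcin-like and visinin-like proteins are neuronal calcium sensors that carry a fatty acid and can move to membranes when calcium rises. In the spinal cord, calretinin, calbindin and parvalbumin label sets of interneurons, and fast skeletal muscle also makes large amounts of parvalbumin.

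Reads counted in genes numbered from 21926842 to 30147448 in injured libraries and from 19310220 to 24161526 in sham libraries. Gene levels are in CPM, reads scaled to a common library size after TMM normalisation, and groups were compared over 12804 genes with edgeR's quasi-likelihood test, with p-values adjusted over all of them and a threshold of 0.05. Sham replicate 1 stood apart from the other sham libraries. Across these 12804 genes (log2 CPM, which are not independent points), it correlated at 0.932 and 0.941 with sham replicates 2 and 3 and at 0.950 to 0.959 with the injured libraries, whereas sham replicates 2 and 3 correlated at 0.989 with each other and the injured libraries at 0.987 to 0.993. Results are therefore given with and without this library. It was picked from these same counts, in which it was closer to the injured libraries than to the other sham libraries. Leaving it out thus tends to widen the group difference and narrow the errors, so the smaller p-values without it are no separate support. The genes of the skeletal muscle list took 3.998%, 1.32% and 1.66% of reads in injured replicates 1, 2 and 3, against 2.22%, 0.924% and 0.684% in sham replicates 1, 2 and 3. Reads outside genes also differed with the groups, at 41.2% to 42.1% of all reads in injured libraries, against 43.8% in sham replicate 1 and 50.9% and 51.3% in sham replicates 2 and 3. This is the order in which the genes that fell placed sham replicate 1, between the injured and the other sham libraries, and its part in the results was not tested.

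RNA of 4 calcium-binding protein genes fell at 1 wpi: the calretinin gene calb2b, cabp5b, pvalb6 and vsnl1a. Their levels in injured cords were between 0.224 and 0.411 of those in sham cords. The other 4 genes that could be tested, calb2a, ncaldb, hpcal4 and pvalb7, did not pass the threshold, and pvalb7 was the only 1 of the 8 with a positive log2 fold change. Thus 4 of 8 genes were called lower and none higher in edgeR, where 4.83% of all genes tested were called lower and 5.81% higher. All 8 had an unadjusted p under 0.05, as did 4892 of the 12804 genes. The median log2 fold change of the 8 genes was -0.91, against -0.03 over all genes tested. In 5 of the 8 genes all injured libraries lay below all sham libraries, which held for 21.8% of all genes. In bulk RNA, fewer cells of a type and less RNA per cell cannot be told apart.

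**Figure D1:**
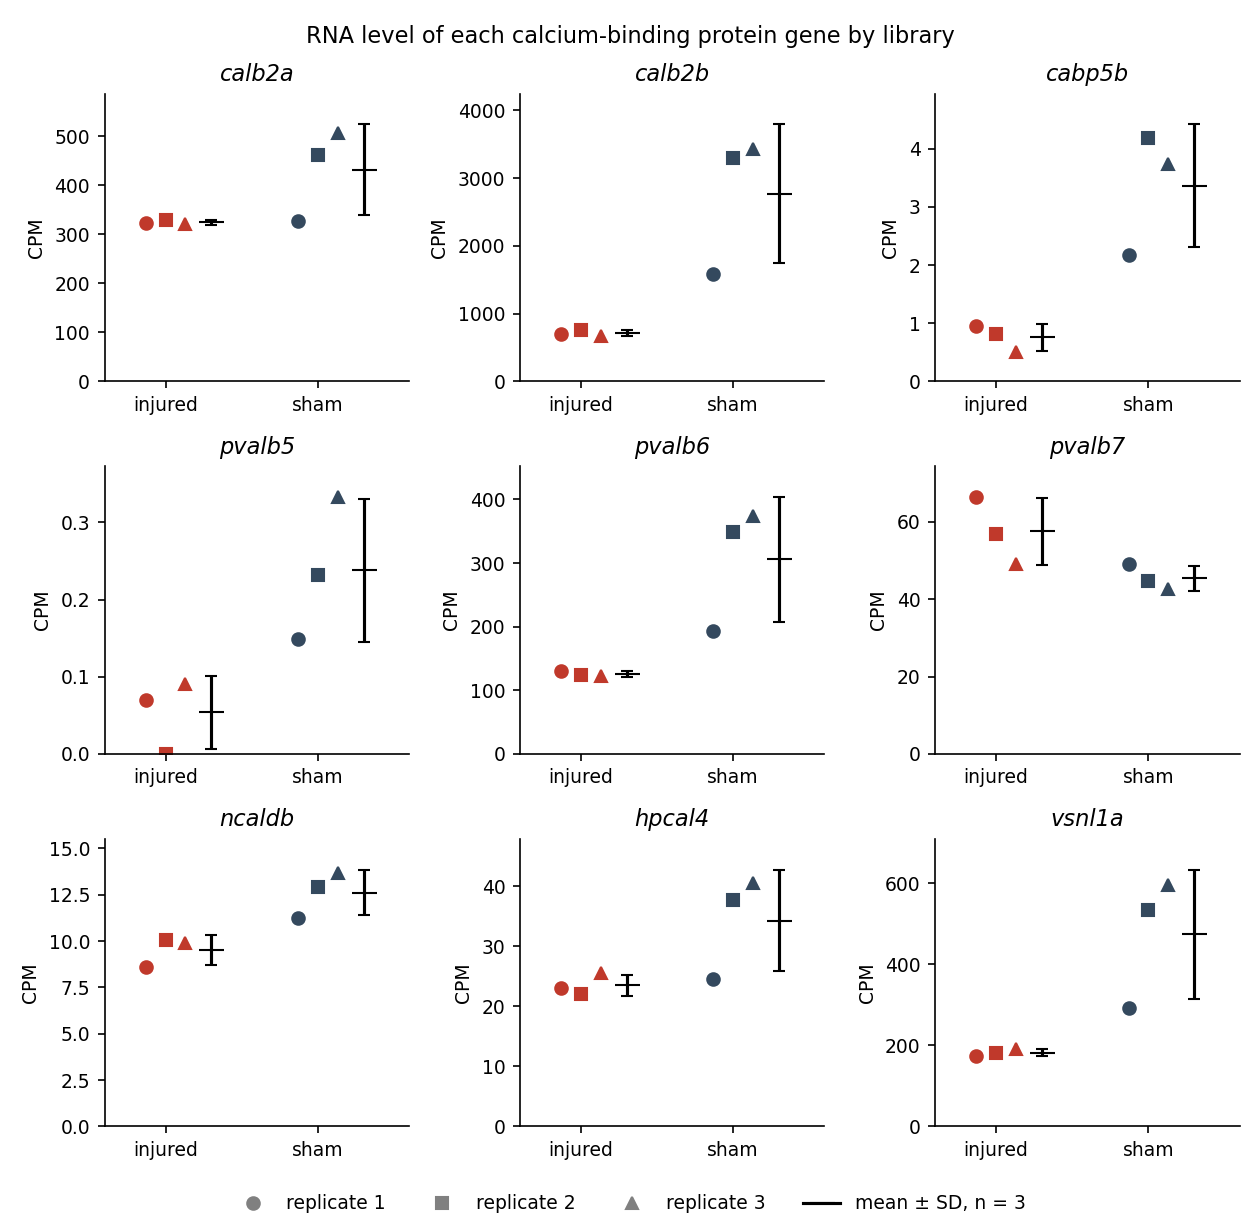
CPM of the 9 calcium-binding protein genes in each library (circles, squares and triangles are replicates 1, 2 and 3), with injured libraries on the left and sham libraries on the right of each panel and bars for the mean and SD of 3 libraries. The injured libraries lay close together for calb2b, pvalb6 and vsnl1a, all below the 3 sham libraries, and sham replicate 1 was the lowest sham library for all genes but pvalb7.

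Among the buffers, the calretinin gene calb2b fell. It measured 702, 761 and 669 CPM in injured replicates 1, 2 and 3, against 1590, 3291 and 3427 CPM in sham replicates 1, 2 and 3. All injured libraries were lower than all sham libraries, and the sham libraries ranged more widely, with replicate 1 at 0.473 of the mean of the other 2. The means were 711 ± 46.5 CPM in injured cords and 2769 ± 1024 CPM in sham cords (SD, n = 3 each), a log2 fold change of -1.96 ± 0.306 (SE; edgeR, adjusted p = 0.0314). Without sham replicate 1 it was -2.24 ± 0.0677 (SE; adjusted p = 3.65e-05).

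Its paralog calb2a, which encodes the second calretinin, moved little. It measured 324, 330 and 320 CPM in injured replicates 1, 2 and 3, against 327, 461 and 505 CPM in sham replicates 1, 2 and 3. The groups overlapped, because sham replicate 1 lay within the range of the injured libraries. The log2 fold change was -0.41 ± 0.167 (SE; edgeR, adjusted p = 0.128), and -0.57 without sham replicate 1 (adjusted p = 0.000525), the only library whose omission led to a call.

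Within a library, the proportion of reads from each paralog does not depend on scaling between libraries. calb2b made up 68.5%, 69.8% and 67.6% of the reads of both calretinin genes in injured replicates 1, 2 and 3, and 82.9%, 87.7% and 87.1% in sham replicates 1, 2 and 3. The groups did not overlap, and the exact binomial 95% intervals, which cover counting error only, reached at most 70.3% in an injured library and no lower than 82.5% in a sham library. The mean share was 68.6% ± 1.07 in injured cords and 85.9% ± 2.62 in sham cords (SD, n = 3 each). Reads per gene also depend on transcript length, which was not used here, so these shares compare libraries and not the amounts of the 2 transcripts.

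**Figure D2:**
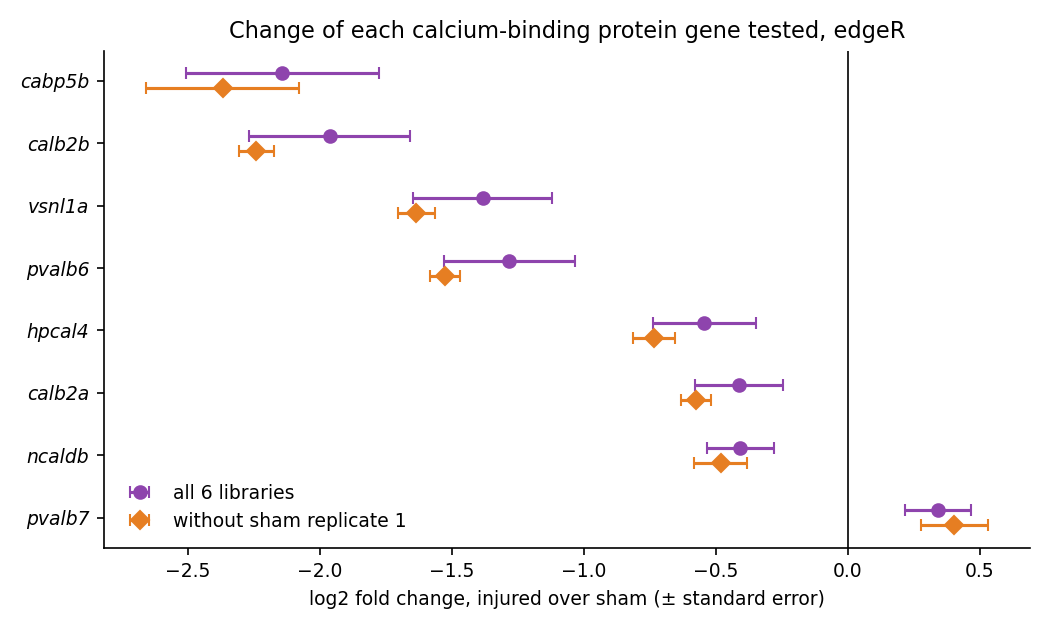
Log2 fold change, injured over sham, of the 8 genes that were tested in edgeR, with bars for the standard error, from all 6 libraries (circles) and without sham replicate 1 (diamonds). Leaving out that library moved each value away from 0 and narrowed most of the bars, and pvalb7 alone lay above 0.

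Parvalbumins are small buffers found in fast-firing neurons and in fast muscle. pvalb6 measured 131, 125 and 122 CPM in injured replicates 1, 2 and 3, against 193, 350 and 374 CPM in sham replicates 1, 2 and 3. Every injured library was lower than every sham library. The means were 126 ± 4.61 CPM in injured cords and 306 ± 98.4 CPM in sham cords (SD, n = 3 each), with a log2 fold change of -1.28 ± 0.249 (SE; edgeR, adjusted p = 0.0402), and -1.52 ± 0.0569 without sham replicate 1 (SE; adjusted p = 5.79e-05).

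pvalb7, which encodes the parvalbumin that marks Purkinje cells in the zebrafish cerebellum, had the opposite sign. It measured 66.5, 57.0 and 49.2 CPM in injured replicates 1, 2 and 3, against 49.1, 44.6 and 42.7 CPM in sham replicates 1, 2 and 3. The injured libraries lay above the sham libraries by a margin of 49.2 against 49.1 CPM, and 22.9% of the 12804 genes had non-overlapping groups in this direction. The log2 fold change was 0.34 ± 0.126 (SE; edgeR, adjusted p = 0.106), short of the threshold, and 0.40 without sham replicate 1 (adjusted p = 0.0373). In another zebrafish assembly pvalb7 overlaps ncf4, a gene of phagocyte oxidase, and the strand setting of the counting is not given. ncf4 measured 19.4, 21.1 and 21.8 CPM in injured replicates 1, 2 and 3, against 17.2, 11.2 and 8.41 CPM in sham replicates 1, 2 and 3, and its part in the counts of pvalb7 was not tested. Likewise pvalb6 overlaps csf2rb, a cytokine receptor gene. csf2rb measured 22.1 ± 3.81 CPM in injured cords and 11.1 ± 6.08 CPM in sham cords (SD, n = 3 each). Its part in the counts of pvalb6 was not tested. calb2b and cabp5b each overlap 1 further annotated gene there that has no symbol match among the counted genes, and its part in their counts was not tested.

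As a share of the reads of both genes, pvalb7 took 33.7%, 31.4% and 28.8% in injured replicates 1, 2 and 3, against 20.3%, 11.3% and 10.2% in sham replicates 1, 2 and 3. The groups did not overlap, with means of 31.3% ± 2.46 in injured cords and 13.9% ± 5.51 in sham cords (SD, n = 3 each). This share is made from the counts of both genes, so it is no separate support for a rise of pvalb7. The log2 fold change was larger in size for pvalb6, at -1.28, than for pvalb7, at 0.34, which edgeR did not call. As for calretinin, the shares compare libraries and not the amounts of the transcripts.

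**Figure D3:**
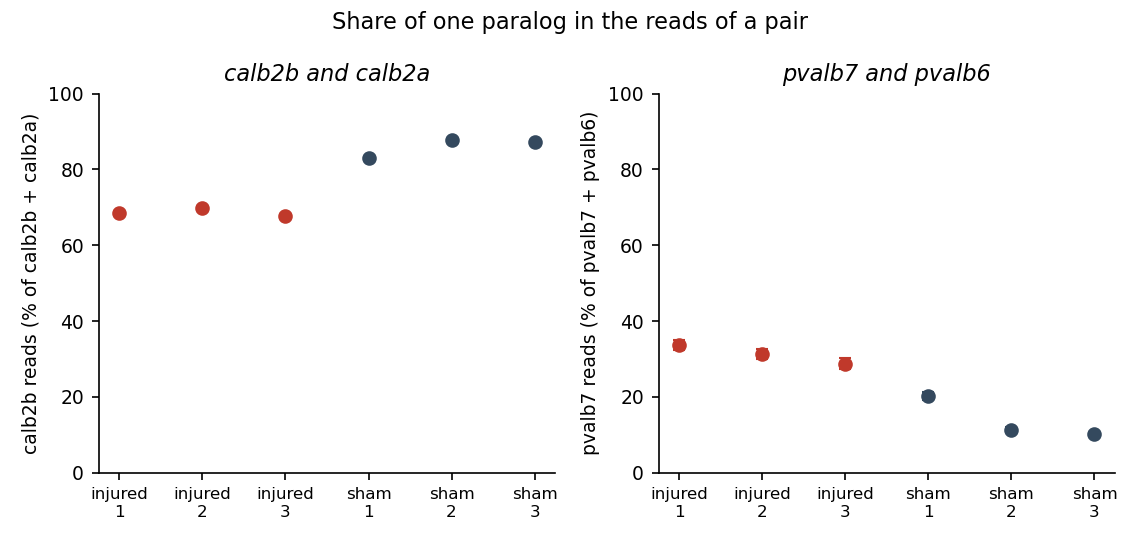
Reads of calb2b as a percent of calb2b and calb2a reads (left) and of pvalb7 as a percent of pvalb7 and pvalb6 reads (right), in injured libraries (red) and sham libraries (dark blue), with exact binomial 95% intervals, which are mostly smaller than the points. The calb2b share was at most 69.8% in injured and at least 82.9% in sham libraries, and the pvalb7 share at least 28.8% in injured and at most 20.3% in sham libraries.

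pvalb5, a further parvalbumin gene, was near the detection limit. It had 2, 0 and 2 reads in injured replicates 1, 2 and 3, against 3, 5 and 8 reads in sham replicates 1, 2 and 3. A count of 0 in injured replicate 2 allows up to 3 reads, or 0.111 CPM, by counting error alone, and the filter on low counts left the gene out, so no fold change is given.

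Other parvalbumin genes, some of them known from muscle, differed in how they varied with the muscle share of the libraries. pvalb2 measured 5699, 1556 and 2359 CPM in injured replicates 1, 2 and 3, against 2715, 1147 and 745 CPM in sham replicates 1, 2 and 3, which is the order of the libraries by the share of the skeletal muscle list. pvalb1 had the same order, with 3540, 1064 and 1592 CPM in injured cords and 1876, 876 and 553 CPM in sham cords. pvalb3, pvalb4 and pvalb6 did not have this order. pvalb3 measured 620, 241 and 295 CPM in injured replicates 1, 2 and 3, against 528, 712 and 498 CPM in sham replicates 1, 2 and 3. pvalb4 measured 802, 410 and 537 CPM in injured replicates 1, 2 and 3, against 865, 841 and 662 CPM in sham replicates 1, 2 and 3. The groups overlapped for both genes, with log2 fold changes of -0.59 and -0.44. pvalb6 was lowest in the 3 injured libraries, whose muscle shares ran from 1.32% to 3.998%. pvalb7 was highest in injured replicate 1, at 66.5 CPM, and lowest in sham replicate 3, at 42.7 CPM, the libraries with the highest and lowest muscle share. The part of muscle RNA in the values of pvalb6 and pvalb7 was not tested. None of pvalb1, pvalb2, pvalb3 and pvalb4 passed the test (adjusted p from 0.257 to 0.303 from edgeR), and pvalb2 passed without sham replicate 1 (adjusted p = 0.0429).

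**Figure D4:**
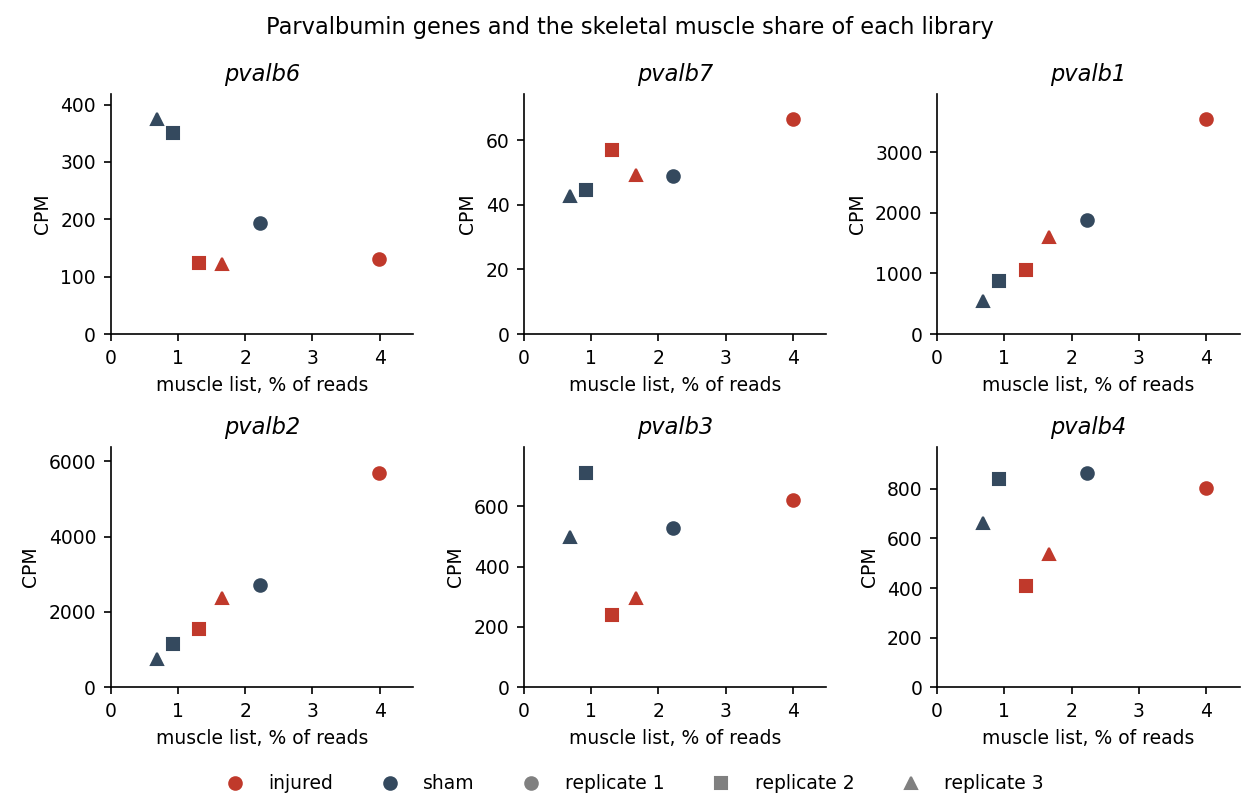
CPM of 6 parvalbumin genes (y axis, a separate scale in each panel) against the percent of reads in the skeletal muscle list (x axis) in the 6 libraries, with injured libraries in red and sham libraries in dark blue. pvalb1 and pvalb2 were ordered as the muscle share was, highest (3.998%) in injured replicate 1 and lowest (0.684%) in sham replicate 3, and pvalb3, pvalb4, pvalb6 and pvalb7 were not.

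The calmodulin-like gene cabp5b encodes a protein known from mouse as a calcium sensor of retinal bipolar cells. It was counted at low depth, with 27, 22 and 11 reads in injured replicates 1, 2 and 3, against 44, 90 and 90 reads in sham replicates 1, 2 and 3. In scaled units these were 0.947, 0.818 and 0.501 CPM in injured replicates 1, 2 and 3, against 2.17, 4.18 and 3.75 CPM in sham replicates 1, 2 and 3, and the groups did not overlap. The log2 fold change was -2.14 ± 0.365 (SE; edgeR, adjusted p = 0.0346), and -2.37 ± 0.290 without sham replicate 1 (SE; adjusted p = 0.00109). Its paralog cabp5a had 15.8 ± 0.821 CPM in injured cords and 20.8 ± 4.68 CPM in sham cords (SD, n = 3 each), a log2 fold change of -0.40 that did not pass the test (adjusted p = 0.158 from edgeR) but did without sham replicate 1 (adjusted p = 0.00141).

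Of the neuronal calcium sensors, vsnl1a fell. It encodes visinin-like protein, which is abundant in neurons and is used in human cerebrospinal fluid as a marker of neuronal injury. vsnl1a measured 175, 180 and 191 CPM in injured replicates 1, 2 and 3, against 293, 534 and 596 CPM in sham replicates 1, 2 and 3. The groups did not overlap and sham replicate 1 lay between the injured libraries and the other sham libraries. The means were 182 ± 8.13 CPM in injured cords and 474 ± 160 CPM in sham cords (SD, n = 3 each), a log2 fold change of -1.38 ± 0.262 (SE; edgeR, adjusted p = 0.0393), and -1.63 ± 0.0687 without sham replicate 1 (SE; adjusted p = 6.29e-05).

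The other 2 sensors had smaller values. hpcal4, which encodes a hippocalcin-like protein, measured 23.0, 22.1 and 25.5 CPM in injured replicates 1, 2 and 3, against 24.6, 37.8 and 40.5 CPM in sham replicates 1, 2 and 3. The groups overlapped at sham replicate 1, and the log2 fold change was -0.54 ± 0.196 (SE; edgeR, adjusted p = 0.102). ncaldb, which encodes a neurocalcin, measured 8.62, 10.1 and 9.88 CPM in injured replicates 1, 2 and 3, against 11.3, 12.9 and 13.7 CPM in sham replicates 1, 2 and 3. The groups did not overlap, with a log2 fold change of -0.41 ± 0.127 (SE; edgeR, adjusted p = 0.0770). DESeq2 called ncaldb (adjusted p = 0.0451) and did not call hpcal4 (adjusted p = 0.0510). Without sham replicate 1, edgeR called both lower, hpcal4 with -0.73 on the log2 scale (adjusted p = 0.000711) and ncaldb with -0.48 (adjusted p = 0.00851).

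Their paralogs spanned a range of values. The log2 fold change was -0.42 for hpca, which encodes hippocalcin (adjusted p = 0.100), -0.08 for ncalda (adjusted p = 0.525) and 0.10 for hpcal1 (adjusted p = 0.481), all from edgeR and none past the threshold. DESeq2 called hpca (adjusted p = 0.0404). Without sham replicate 1, hpca passed (adjusted p = 0.000365), and ncalda and hpcal1 did not (adjusted p = 0.110 and 0.236).

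The calls depended on which libraries were compared. Without sham replicate 1, edgeR called 7 of the 8 genes lower and 1, pvalb7, higher, but it then called 28.2% of all genes tested lower and 29.0% higher. Without any other single library (sham replicate 2 or 3, or injured replicate 1, 2 or 3), edgeR called no gene at all, and 4 to 6 of the 8 genes had an unadjusted p under 0.05, as did 3026 to 3440 of the 12873 to 12965 genes tested. The log2 fold changes then ranged from -1.78 to -2.01 for calb2b (adjusted p from 0.109 to 0.169), from -1.92 to -2.33 for cabp5b (0.113 to 0.169), from -1.11 to -1.31 for pvalb6 (0.120 to 0.175) and from -1.19 to -1.42 for vsnl1a (0.117 to 0.175). DESeq2 on all libraries called 5 of the 8 genes lower, where 14.5% of all genes were called lower. DESeq2 called calb2b, cabp5b, pvalb6 and vsnl1a lower with each of the 6 libraries left out in turn, with adjusted p up to 0.00673. The share of all genes called lower in DESeq2 was then 26.1% without sham replicate 1, 7.30% and 7.28% without sham replicates 2 and 3, and 6.90%, 6.30% and 6.77% without injured replicates 1, 2 and 3. pvalb7 was called higher in DESeq2 without sham replicate 1 (27.9% of all genes higher) and without injured replicate 3 (7.50%). With limma-voom and sample weights, 7 of the 8 genes were lower and pvalb7 higher, where 29.7% of all genes were lower and 29.2% higher. The same 4 genes were lower in edgeR under RLE, upper-quartile and total-count scaling, where 5.02%, 5.47% and 7.86% of all genes were lower, under TMM without muscle genes (4.75%), with no filter (3.39%) and with 10 counts in every library (6.18%).

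To set these changes beside those of a list of pan-neuronal genes, each gene's log2 level (CPM plus 0.5) was taken relative to the mean of 24 such genes in the same library. That mean was lower in injured than in sham cords by a difference of -0.44 on the log2 scale (-0.61 without sham replicate 1). Relative to it, calb2a, ncaldb and hpcal4 had differences of 0.05, 0.05 and -0.07 between injured and sham cords, and their groups overlapped. calb2b, cabp5b, vsnl1a and pvalb6 lay lower in all injured libraries than in all sham libraries also on this relative scale, with differences of -1.45, -1.16, -0.88 and -0.78. The added 0.5 CPM is close to the level of cabp5b in injured libraries (0.501 to 0.947 CPM). It shrinks the relative difference of cabp5b, which cannot be ranked against the others. pvalb7 lay higher in all injured libraries, with a relative difference of 0.77. The 24 pan-neuronal genes did not move alike, and edgeR called 5 of them lower and 2 higher. The log2 fold changes of nefmb and snap25a were -1.84 and -1.31, and those of vamp2 and uchl1 were 0.61 and 0.74. vsnl1a and pvalb6, at -1.38 and -1.28, fell about as far as snap25a, and calb2b, at -1.96, fell about as far as nefmb. The relative differences of vsnl1a, pvalb6 and calb2b thus depend on the genes averaged. These are descriptions with no test, and how many of all genes had non-overlapping groups on this relative scale was not computed.

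Among other genes of the same protein families, the changes called on all libraries were falls. Of 10 further neuronal calcium sensor genes tested, 2 were called lower in edgeR and 3 in DESeq2, and none higher in either. kcnip1b, a calcium-sensing subunit of potassium channels, measured 10.5 ± 0.825 CPM in injured cords and 39.1 ± 15.6 CPM in sham cords (SD, n = 3 each), a log2 fold change of -1.89 ± 0.324 (SE; edgeR, adjusted p = 0.0346). For ncs1b, neuronal calcium sensor 1, the value was -1.33 (adjusted p = 0.0402). The median of these 10 genes was -0.45. Of 10 genes for calmodulin and other Cabp proteins, 3 were called lower in edgeR and 4 in DESeq2, and none higher in either, with a median of -0.43. The 3 were the calmodulin genes calm1a and calm1b, with log2 fold changes of -1.40 and -1.50, and cabp1b, a regulator of calcium channels, with -1.42 (adjusted p from 0.0355 to 0.0429 from edgeR). Of 11 further parvalbumins and EF-hand buffers, necab2 alone passed edgeR's test, and DESeq2 also called 1 lower and none higher. Over all genes, edgeR called 4.83% lower and DESeq2 14.5%, so the 1 of 11 in DESeq2 did not exceed the share over all genes. necab2 measured 40.7 ± 2.27 CPM in injured cords and 86.5 ± 24.6 CPM in sham cords (SD, n = 3 each). Its log2 fold change was -1.09 (adjusted p = 0.0402 from edgeR).

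Genes that remove calcium from the cytosol or act on its signals were lower in part. Of 19 genes for calcium pumps and exchangers, 4 were called lower and none higher in edgeR, 10 lower and 2 higher in DESeq2, and 10 lower and 5 higher in edgeR without sham replicate 1. Over all genes, edgeR called 4.83% lower and 5.81% higher, and 28.2% lower and 29.0% higher without sham replicate 1. DESeq2 called 1885 of 12962 genes lower and 1894 higher. The rises among the 19 genes were thus no more frequent than over all genes. The 2 higher in DESeq2 were the plasma membrane pump gene atp2b1b (adjusted p = 0.0168) and atp2a2b, a pump of the endoplasmic reticulum (adjusted p = 0.00406), named after their values were seen. atp2b2, a calcium pump of the plasma membrane, measured 307 ± 9.94 CPM in injured cords and 664 ± 208 CPM in sham cords (SD, n = 3 each), with a log2 fold change of -1.11 ± 0.240 (SE; edgeR, adjusted p = 0.0439). For the exchanger genes slc24a4a, slc8a4a and slc8a4b the values were -1.04, -0.78 and -0.71. Of 17 genes for calmodulin-dependent kinases, related proteins and calcineurin, 7 were called lower in edgeR and 13 in DESeq2, and none higher in either. The 4 with the smallest adjusted p were camk1da with a log2 fold change of -0.997, camkvb also with -0.997, the calcineurin gene ppp3cb with -1.32 and camk4 with -1.40 (adjusted p from 0.0294 to 0.0425 from edgeR). The medians of these lists were -0.57 and -0.60.

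**Figure D5:**
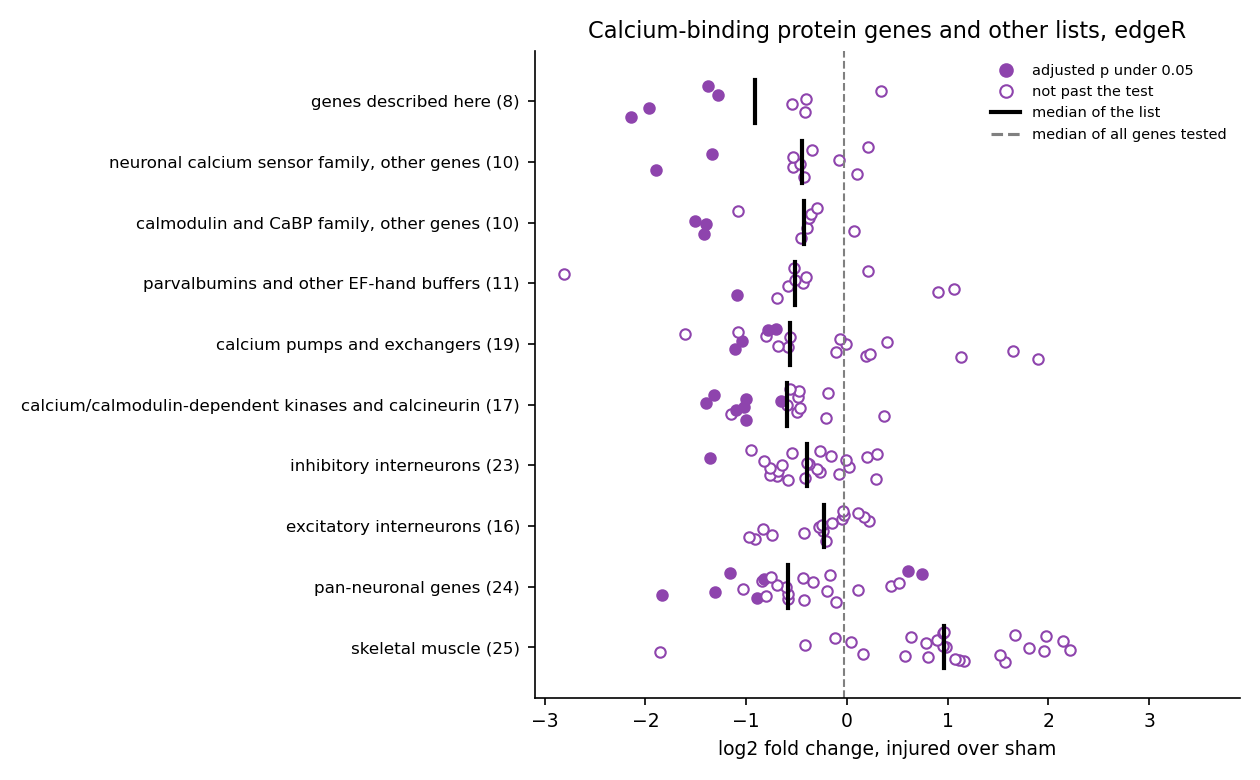
Log2 fold change, injured over sham, of each gene tested (points, filled where adjusted p was under 0.05 in edgeR) for the calcium-binding protein genes described here and for 9 other lists, with a bar for each list's median and a dashed line for the median of all genes tested (-0.03). The 8 genes described here had a median of -0.91, pan-neuronal genes one of -0.59 and skeletal muscle genes one of 0.96.

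Markers of the neurons that could hold these transcripts were called unevenly, and their part in the results was not tested. Over all genes, edgeR called 4.83% lower and 5.81% higher, and DESeq2 called 14.5% lower and 1894 of 12962 higher. Of 23 genes of inhibitory interneurons, edgeR called 1 lower, a share near the 4.83% of all genes, and none higher, and DESeq2 called 8 lower and none higher. The gene called in edgeR was the glycine transporter gene slc6a5, with 118 ± 9.95 CPM in injured cords and 302 ± 87.5 CPM in sham cords (SD, n = 3 each) with -1.36 on the log2 scale (adjusted p = 0.0345 from edgeR). The list took 0.105% to 0.115% of reads in injured libraries and 0.126% to 0.196% in sham libraries, with a median log2 fold change of -0.40. None of 16 genes of excitatory interneurons passed edgeR's test (3 at an unadjusted p under 0.05, and 1 lower in DESeq2), with a median of -0.22, and the list's share of reads overlapped between groups, at 0.0180% to 0.0209% in injured and 0.0175% to 0.0227% in sham libraries. Of 9 motor neuron genes 4 were lower in edgeR, chata, ache, isl2a and mnx1, 6 were lower in DESeq2, none was higher in either, and the median was -0.95. Of 24 pan-neuronal genes, 5 were lower and 2, vamp2 and uchl1, higher in edgeR. DESeq2 called 14 lower and 4 higher, the latter near its share over all genes. The 4 with the smallest adjusted p were vamp2, nefmb, uchl1 and snap25a (adjusted p from 0.0281 to 0.0436 from edgeR). Their log2 fold changes were 0.61, -1.84, 0.74 and -1.31. The list took 1.72% to 1.91% of reads in injured libraries and 2.42% to 4.06% in sham libraries.

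Markers of sensory ganglia, hair cells and muscle, which also make calretinin or parvalbumin, and of microglia and macrophages were called unevenly. Their part in the results was not tested. On all libraries, edgeR called 5.81% of all genes higher and 4.83% lower. Of 16 genes of sensory ganglion neurons, calca and prph rose, by 0.89 and 0.55 on the log2 scale (adjusted p = 0.0314 and 0.0430 from edgeR), and edgeR called none lower. DESeq2 called 2 higher and 3 lower, ntrk2b, ntrk3a and ret (adjusted p from 0.00531 to 0.0285), named after their values were seen, and edgeR without sham replicate 1 called 3 higher and 5 lower. Over all genes, DESeq2 called 1894 of 12962 higher and 1885 lower. Without sham replicate 1, edgeR called 29.0% of all genes higher and 28.2% lower, so these counts do not set this list apart. The median of the list was -0.37, with 13 of 16 values negative. Its share of reads went the other way, at 0.114% to 0.123% in injured libraries and 0.0907% to 0.102% in sham libraries. Of 11 hair cell genes tested, tmc2a was higher and otofa lower in edgeR, DESeq2 called 1 higher and 2 lower, and the defining transcription factor genes atoh1a and pou4f3 did not exceed 0.223 and 0.0416 CPM in any library. tmc2a was near the detection limit in sham replicates 1, 2 and 3, at 0.247, 0.139 and 0.125 CPM. In injured libraries it had 0.561 to 0.743 CPM. Of 25 skeletal muscle genes none passed edgeR's test (2 at an unadjusted p under 0.05, and 1 higher and 1 lower in DESeq2), and without sham replicate 1, 15 were higher and 1 was lower. Genes of microglia and macrophages took 0.974% to 1.14% of reads in injured libraries and 0.350% to 0.596% in sham libraries, with 2 of 11 higher in edgeR and 7 in DESeq2, and none lower in either.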

How the data were processed

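The deposited files hold raw counts of reads per gene symbol, which the authors made from single-end reads aligned to danRer10 with TopHat2, filtered with SAMtools 1.3.1 and counted with HTSeq 0.6.0. Neither annotation nor strand setting is stated in the sources. Reads outside genes (41.2% to 42.1% of all in injured and 43.8% to 51.3% in sham libraries) stayed out of library sizes and tests. Genes were filtered with filterByExpr (minimum count 10, minimum total 15), which kept 12804 genes. Libraries were scaled by TMM and compared with edgeR 4.0.16 (R 4.3.3), with p-values adjusted by Benjamini-Hochberg and standard errors taken from the fold change and its F statistic. Counts of replicates differed by more than sampling noise (chi-square 11.6 to 163 times its degrees of freedom). The scripts were tested on simulated data.

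The genes, the lists and the tests were chosen with earlier results of these data known. The text names every gene of the group, their counted paralogs other than pvalb8 and pvalb9, and up to 4 called genes by adjusted p of most other lists. Called genes of microglia and macrophages are counted but not named. Lists of ependymo-radial glia and of oligodendrocytes were also compared and are not described. The alternatives were RLE, upper-quartile and total-count scaling, TMM without muscle genes, DESeq2 1.42.0, limma-voom 3.58.1 with sample weights, no filter, 10 counts in every library, a replicate block and each library left out. Older symbols were matched through a RefSeq gene table of another assembly (GRCz12tu), which also gave the overlapping genes.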

Additional observations from a re-analysis of the deposited data

How the results depend on the processing

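Over 21 alternatives none of the 8 genes changed the sign of its log2 fold change. RLE, upper-quartile and total-count scaling, TMM without muscle genes and both filters left 4 genes lower. limma-voom with sample weights gave 7 lower and 1 higher, and DESeq2 without sham replicate 1 also gave 7 lower and 1 higher. DESeq2 without injured replicate 3 gave 1 higher, pvalb7. With edgeR and 1 library left out, 0 to 7 genes were lower and 0 to 1 higher. With 1 library of a group left out, the mean calb2b share was 68.1% to 69.1% in injured and 85.0% to 87.4% in sham libraries. The mean pvalb7 share was then 30.1% to 32.5% in injured and 10.8% to 15.8% in sham libraries. Over all genes, edgeR called 744 higher and 618 lower, against 456 and 1006 with total-count scaling, 1894 and 1885 in DESeq2 and 3740 and 3805 in limma-voom. Deviations from the group mean correlated at -0.16, -0.03 and 0.07 between same-numbered libraries, and at -0.21 to 0.18 between the others. With 3 libraries per group, these correlations cannot show whether libraries of the same number share a batch. A replicate block gave 0 calls in either direction over all genes with edgeR. Under it, 7 of the 8 genes and 4322 of all genes had an unadjusted p under 0.05. The adjusted p of calb2b, cabp5b, pvalb6 and vsnl1a under the block was 0.0847 each. The cause of these differences was not tested. Depth limits pvalb5, with 4 reads in all injured and 16 in all sham libraries, and cabp5b.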
